A study of Mus musculus with 2 samples.

Results

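Natural killer (NK) cells in mouse lung tumours were described from 91 single cells, 47 in a control tumour and 44 in a tumour with a knockdown of Gfpt2. They were taken from 24208 cells that passed a filter of at least 500 detected genes and at most 20% mitochondrial counts, out of 24830 cells in all. A cell entered the NK gate with at least 2 unique molecular identifiers (UMIs, each standing for 1 captured RNA molecule) of Ncr1, Klrb1c and Klre1 together and no UMI of Cd3d, Cd3e or Cd3g. Lyz2 had to be under 20 and C1qa, C1qb and C1qc together under 5 per 10000 UMIs, and Hmga2, Tnfrsf12a and Igf2bp2 together at no more than 2 UMIs. The cells were thus chosen by the measured counts of these 13 genes, and the levels of those genes below describe the gate and are not a finding.

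Both tumours are labelled as lung cancer xenografts of LLC (Lewis lung carcinoma, a mouse line). The study asked what lowering Gfpt2 does to the immune cells around the tumour. One library carries the treatment label control (title NC) and the other a short hairpin RNA to knock down GFPT2 (title SH). The product of Gfpt2 makes glucosamine phosphate at the entry of hexosamine synthesis. The strain, age and number of the host mice and the time of growth are not given in the sources used here. With 1 library per group there was no spread between replicates and no test was made. All intervals are 95% intervals of counting error only: Poisson for levels, Clopper-Pearson for shares and conditional binomial for ratios, each exact.

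NK cells are innate lymphocytes that kill stressed or transformed cells without a rearranged antigen receptor. Activating receptors such as NKp46 (Ncr1) and NKG2D (Klrk1) are balanced by inhibitory receptors for MHC class I, and killing uses granules filled with perforin and granzymes. They also release interferon gamma and chemokines that draw dendritic cells and T cells into tumours. The transcription factors T-bet (Tbx21) and Eomes guide their development.

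The 47 control cells held 306581 UMIs, with a median of 5394 per cell (951 to 19680), and the 44 knockdown cells held 254119, with a median of 5018.5 (1071 to 17141). Gfpt2 had no UMI in the NK gate of either library, so the knockdown was not readable there. In the tumour-like gate (more than 2 UMIs of Hmga2, Tnfrsf12a and Igf2bp2, no Ptprc) Gfpt2 stood at 2.04 and 0.555 CPM in the control and knockdown libraries, where CPM is the usual depth-scaled level, the gene's UMIs over the total UMIs of the gate. Of 37 cell barcodes present in both libraries, 0 control and 1 knockdown NK cell carried one.

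NK gate cells made up similar shares of the cells in both tumours at this depth. They were 0.404% of filtered cells in the control library (0.297 to 0.536) and 0.350% in the knockdown library (0.255 to 0.470). The ratio of knockdown over control was 0.868, with bounds of 0.475 and 1.58 from the 2 intervals. Among cells with a UMI of Ptprc, the gene of the leukocyte antigen CD45, the shares were 0.966% (45 of 4658) and 0.991% (43 of 4340). A difference inside these bounds was not detectable with so few cells.

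The labelled identity was checked against 2 markers that the rule did not use, Eomes and Gzma, while the 3 receptors describe only how the gate was filled. Ncr1 had a UMI in 37 of 47 control and 34 of 44 knockdown cells, Klrb1c (NK1.1) in 29 and 24, and Klre1 in 39 and 34. All 3 receptors were seen together in 20 control and 15 knockdown cells, a pair of them in 18 and 18, and a single one in 9 and 11. Eomes had a UMI in 18 control cells (38.3%) and 20 knockdown cells (45.5%), and Gzma in 25 (53.2%) and 26 (59.1%). Free RNA gives UMIs in cells that do not express a gene. In macrophage gate cells (Lyz2 and C1q above both limits, with a median of 5885.5 control and 4313 knockdown UMIs) Eomes had a UMI in 0.0622% and 0.0307% and Gzma in 1.21% and 0.889%. In CD8 T gate cells, described below, Eomes had a UMI in 35 of 328 and 41 of 294 cells (10.7% and 13.9%) and Gzma in 59 and 13, with medians of 3450 and 3104.5 UMIs, so neither gene is particular to NK cells. After each cell was thinned to 2500 UMIs, leaving out 4 control and 12 knockdown NK cells, Gzma was seen in 21 of 43 and 16 of 32 NK cells, and Eomes in 16 of 43 and 16 of 32. Of the thinned CD8 T cells, Eomes was seen in 31 of 240 and 34 of 200, and Gzma in 37 and 4. Itga2 (CD49b) had no UMI in 42 of 47 control and 36 of 44 knockdown NK gate cells, Itgam none in 45 and 41, and Itga1 (CD49a) none in 28 and 24. The rule held no gene that separates NK cells from type 1 innate lymphoid cells (ILC1), and their share in the gate was not tested.

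**Figure D1:**
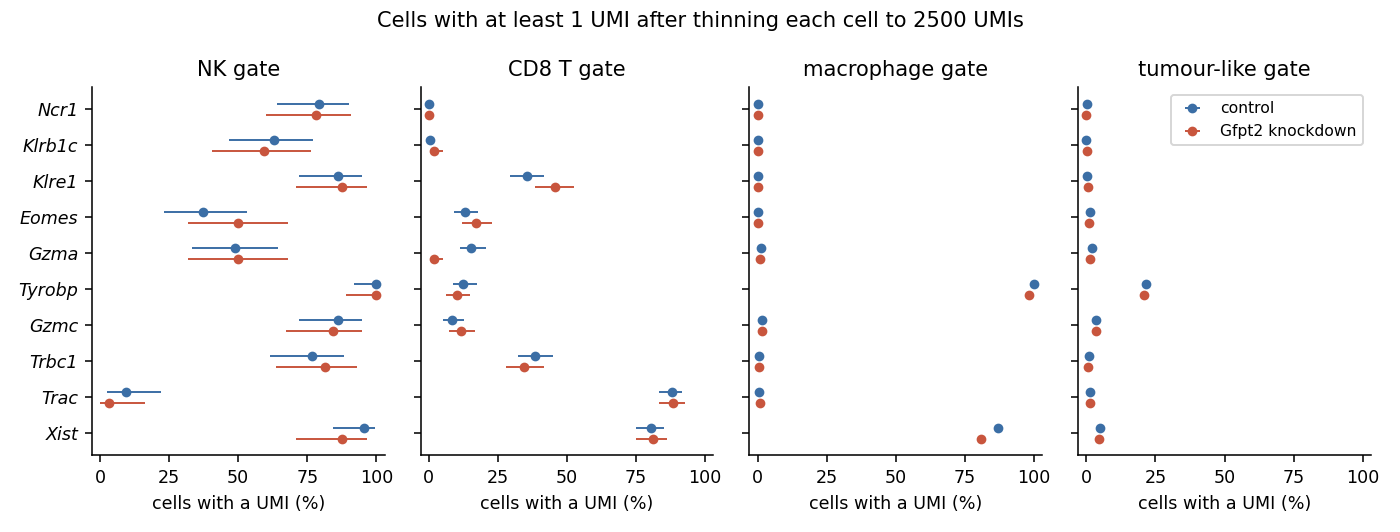
Share of cells with at least 1 UMI of each gene (x axis, percent) in 4 gates, after thinning every cell to 2500 UMIs; points are libraries and bars exact 95% binomial intervals. Ncr1 lies near 79% and 78% in the NK gate and at 0 of 240 and 0 of 200 cells in the CD8 T gate, where the bars end at upper limits of 1.53% and 1.83%, while Klre1 lies at 35.4% and 45.5% there; Tyrobp is shared with macrophages, and Xist separates host cells from the tumour-like gate.

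Marker lists of other lineages ranged from 0 to levels above those of the other gates. Cd4, Cd8a, Cd8b1, Cd5 and Trat1 had no UMI in either library, and Trac, the T cell receptor alpha constant gene, had 5 UMIs in control and 2 in knockdown cells. Trbc1 had 78 and 95 UMIs, in 35 and 34 cells, and Trbc2 had 66 and 63. As background, unrearranged Trbc transcripts are known in NK cells. The 7 neutrophil genes and the cytokine genes Il22 and Il17a were all at 0. The 12 macrophage markers summed to 874 CPM in control and 925 CPM in knockdown NK cells, against 96940 and 94366 CPM in macrophages, led by Apoe. Lyz2, C1qa, C1qb and C1qc are among these markers and set limits of both gates, so part of this gap was fixed by the rule. The 7 monocyte markers summed to 776 and 1066 CPM, led by Plac8, with Chil3 and F13a1 at 0. The same sums were 583 and 488 CPM in macrophages, 1183 and 898 CPM in CD8 T cells and 885 and 1147 CPM in tumour-like cells. The 7 fibroblast markers summed to 320 and 181 CPM (98 and 46 UMIs), against 1726 and 1068 CPM in CD8 T cells and 2080 and 2361 CPM in tumour-like cells, with Col1a1 and Col1a2 at 0. The 10 markers of tumour-like cells, which include Hmga2, Tnfrsf12a and Igf2bp2 of the rule, summed to 163 and 114 CPM. The 6 endothelial markers, led by Pecam1 and with Cdh5, Kdr and Emcn at 0, summed to 160 and 110 CPM, above the 64.0 and 23.9 CPM of CD8 T cells. Of 8 gamma-delta T cell markers, the 7 found among the measured genes summed to 94.6 and 94.4 CPM against 134 and 96.4 CPM in CD8 T cells. The 8 markers of type 2 innate lymphoid cells, led by Gata3, summed to 97.9 and 98.4 CPM against 120 and 130 CPM. Ighm was the only member of 8 B and plasma cell markers with a UMI, with 53 and 41 UMIs. Xist, expressed from the inactive X chromosome of female cells, had a UMI in 43 of 47 and 35 of 44 cells, but in 4.85% and 4.40% of tumour-like cells. The part of such foreign RNA in the results below was not tested, apart from the stricter gates given beside them.

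Cells at the edge of the gate were compared once. Cells that met all other limits with 1 receptor UMI numbered 15 and 13, and their Gzma levels were 289 CPM (control) and 111 CPM (knockdown). Those just inside, with 2 UMIs, numbered 11 and 9 and stood at 3444 and 5830 CPM, and those with 3 or more numbered 36 and 35 and stood at 2618 and 3532 CPM. A further 62 and 73 cells met every other limit but had at least 2 Cd3 UMIs, and their Trac level was 462 and 565 CPM.

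Against CD8 T cells of the same tumours, the genes highest in NK cells included granzymes and adaptors of activating receptors. The CD8 T gate held 328 control and 294 knockdown cells with at least 2 Cd3 UMIs, a UMI of Cd8a or Cd8b1 and none of Cd4. Of 5743 genes with at least 30 UMIs in 1 of the gates in each library, 64 (1.11%) were at least 2-fold higher and 334 (5.82%) at least 2-fold lower in NK cells in both libraries. The rule itself separated the gates, so these genes describe the cells it chose. Tyrobp, which encodes the signalling adaptor DAP12, reached 1129 and 1362 CPM in control and knockdown NK cells, against 46.6 and 28.8 CPM in CD8 T cells. Fcer1g, the Fc receptor gamma chain, was 4.11 and 4.54 higher on the log2 scale. Clnk, an adaptor of immunoreceptor signalling, was 4.09 and 4.90 higher, the inhibitory Ly49 receptor gene Klra7 3.88 and 3.77, and Ccr2, a receptor for monocyte chemokines, 3.32 and 4.46. The granzymes led the list, with Gzmg higher by at least 8.02 in control, where CD8 T cells had no UMI, and by 6.52 in knockdown, and Gzmc by 6.47 and 7.42. Gzmd was higher by 6.73 and 4.87, Gzme by 5.23 and 4.43, Gzmb by 2.65 and 2.58 and Gzma by 2.50 and 5.58. Car2 (carbonic anhydrase 2) was higher by 3.36 and 4.02, Spp1 by 3.41 and 3.42, and the chemokine genes Xcl1 by 2.64 and 3.21 and Ccl1 by 2.89 and 2.97. Without NK cells that had 2 T cell receptor UMIs, Gzmd, Gzme and Spp1 were below the CD8 T level in the library of the smaller ratio, and so was Ccl1 with the deepest 5% of cells left out. The smaller ratio of Gzmg fell from 6.52 to 1.10 in the first of these settings, and in cells with no Lyz2 or C1q UMI those of Gzmb and Xcl1 were inside 2-fold, at 0.88 and 0.59.

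Among the 10 genes lowest in NK cells were several of T cells. Themis, which acts in T cell selection, had no UMI in NK cells against 451 and 407 in CD8 T cells, so it was lower by at least 4.94 in control and at least 4.83 in knockdown on the log2 scale, with a floor of 3 counts. Bcl11b, a T lineage transcription factor, had 1 and 0 UMIs, and Lat, an adaptor of the T cell receptor, 2 and 6. Trac stood at log2 ratios of -4.91 and -6.15, and Cd6, a T cell surface receptor gene, had 0 and 1 UMIs against 158 and 113. The other members were not all T lineage genes: Klrh1, a lectin-like receptor, had 0 and 1 UMIs against 169 and 416, Tnfrsf4 (OX40) 2 and 1 against 159 and 134, the metalloprotease gene Adam19 2 and 0 against 199 and 161, Gm8369 1 and 0 against 211 and 226, and Fam169b 1 and 1 against 98 and 89. For 4 of the 10 a stricter gate brought the smaller ratio inside 2-fold, to -0.22 for Klrh1 and -0.16 for Fam169b in cells with no Lyz2 or C1q UMI, and to -0.72 for Tnfrsf4 and -0.98 for Adam19 without cells that had 2 T cell receptor UMIs. These 4 genes had 0 to 2 NK UMIs per library in the full gate, and a count of 0 was set to the floor of 3. A smaller gate therefore cannot show whether their difference from CD8 T cells was lost. The lists are given beside the shares of all genes, 1.11% higher and 5.82% lower. The inhibitory receptor and checkpoint list split, with 5 of 17 compared members 2-fold higher and 7 of 17 2-fold lower in NK cells in both libraries. Pdcd1 (PD-1) had 0 UMIs in control NK cells and 12 in knockdown NK cells, 91.7% of them in 1 cell, while CD8 T cells were at 203 and 241 CPM. Of 32 interferon response genes compared, 8 were 2-fold lower in NK cells and 0 higher, and the list medians were -0.91 and -1.01, against -0.07 and -0.16 over all genes. The granule list had 8 of 19 higher and 1 of 19 lower.

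Between the tumours, NK cells differed little in most genes. Of 1776 genes with at least 30 UMIs in 1 library, leaving out the genes of the gate, 96.2% were within 2-fold of each other and the median log2 ratio of knockdown over control was -0.05. At least 2-fold higher in the knockdown library were 19 genes (1.07%), and at least 2-fold lower were 49 (2.76%). The counts of list members past 2-fold given below stand beside these shares, and a single member past 2-fold says nothing particular about its list. With the cells that had 2 or more Trac, Trbc1 and Trbc2 UMIs left out, 16 control and 14 knockdown cells remained, and 7 genes were higher and 20 lower.

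Among the lists, that of granule cytotoxicity genes had the most members at least 2-fold higher in the knockdown library. They were 4 of 15 compared, Gzmd, Gzme, Gzmf and Gzmg, with 0 lower, and the list had a median of 0.41 (0.05 to 1.24 over the alternative settings). Gzma, the granzyme with trypsin-like activity, had 827 UMIs in control and 963 in knockdown NK cells, or 2697 CPM (2517 to 2888) and 3790 CPM (3554 to 4037). Its log2 ratio was 0.49 (0.35 to 0.63), and 0.27 to 2.60 over the alternative settings. Prf1, which encodes the pore protein perforin, was at 776 and 1031 CPM, with a UMI in 28 of 47 and 37 of 44 cells, a log2 ratio of 0.41 (0.15 to 0.67). Gzmb, which cuts caspases in the target cell, was at 3630 and 4419 CPM, a ratio of 0.28 (0.16 to 0.40), and was seen in 38 cells of each library. Gzmc, another granzyme of the same gene cluster as Gzmb, was at 18198 CPM (17723 to 18681) and 18334 CPM (17811 to 18868), in 37 and 29 cells, a ratio of 0.01 (-0.05 to 0.07), and -2.07 without cells that had 2 T cell receptor UMIs.

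Gzmd, Gzme, Gzmf and Gzmg, granzymes whose genes lie beside Gzmc, were higher in the knockdown library but rested on few cells. Gzmd had 520 control and 901 knockdown UMIs, in 12 and 17 cells, a ratio of 1.06 (0.91 to 1.22). Gzme had 107 and 473 UMIs, in 10 and 16 cells, a ratio of 2.41 (2.11 to 2.73). Gzmf had 91 and 1912 UMIs, a ratio of 4.66 (4.36 to 4.98), yet it was seen in only 2 control and 6 knockdown cells. In 1 control cell lay 84.6% of its control UMIs, and in 1 knockdown cell, which held 1002 of them, 52.4%. Gzmg had 159 and 729 UMIs in 4 and 5 cells, with 90.6% and 44.4% in the leading cell, a ratio of 2.47 (2.22 to 2.72). With the deepest 5% of cells left out, the ratios were -0.08 for Gzmd, 1.69 for Gzme, 3.02 for Gzmf and 0.20 for Gzmg. Without cells that had 2 T cell receptor UMIs, the direction turned, with ratios of -7.16 for Gzmd, -5.23 for Gzme and -4.81 for Gzmg, the last against a floor of 3 counts. Those turned values rested on 1 control cell, which held 213 UMIs of Gzmd, 45 of Gzme and 144 of Gzmg, with 31 and 18 of Gzmd and Gzme in a further cell. In CD8 T cells the control and knockdown libraries had 24 and 147 UMIs of Gzmd and 14 and 105 of Gzme. Gzmf had 108 and 420 UMIs there and Gzmg 0 and 38, so the rise was not particular to NK cells. Tumour-like cells had 6 and 18 UMIs of Gzme, 6 and 53 of Gzmf and 5 and 30 of Gzmg. The part of free RNA in these counts was not tested.

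These granzyme genes sit side by side in the genome with mast cell protease genes, and RefSeq (GRCm38.p6) lists 15 coding genes from Cma1 to Gzmb on chromosome 14, all of this protease family. The assignment of reads to single members is uncertain, since the transcripts of Gzmd and Gzme were 90.0% and those of Gzmf and Gzmg 87.5% identical, while Gzmb and Gzmc were 47.5% identical. Cma2, Mcpt1, Mcpt2, Mcpt9 and Mcpt4 had no UMI in NK cells, Cma1 had 3 and 7, and Gzmn had 0 and 1. Mcpt8, a basophil protease, had 0 control UMIs and 13 knockdown UMIs in 2 cells, while Cpa3, Gata2, Fcer1a, Ms4a2 and Cd200r3 of the same mast cell and basophil list had 0. Ctsg, which encodes cathepsin G and lies next to Gzme, had 0 control UMIs and 104 knockdown UMIs in 4 cells, 64 of them in 1 cell, so that its log2 ratio was at least 5.39 against a floor of 3 counts. The CD8 T gate had no UMI of Ctsg or Mcpt8, and the macrophage gate had 1 control UMI of Ctsg. All 4 cells with Ctsg and both with Mcpt8 were among the 12 knockdown cells with at least 10 UMIs of Gzmd, Gzme, Gzmf and Gzmg together, a limit set after the values were seen.

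The promoter sequences of 4 of these genes are shown because their RNA was found in the same cells. Each spans 250 bases before to 50 after the start, read 5' to 3' on the gene's strand (minus), from RefSeq on GRCm38.p6. Capitals mark every match on either strand to TGTGGT, the core letters bound by Runx factors, and TGANTCA, the letters of AP-1, and no matches overlapped.
Gzmb, chr14:56262285-56262584: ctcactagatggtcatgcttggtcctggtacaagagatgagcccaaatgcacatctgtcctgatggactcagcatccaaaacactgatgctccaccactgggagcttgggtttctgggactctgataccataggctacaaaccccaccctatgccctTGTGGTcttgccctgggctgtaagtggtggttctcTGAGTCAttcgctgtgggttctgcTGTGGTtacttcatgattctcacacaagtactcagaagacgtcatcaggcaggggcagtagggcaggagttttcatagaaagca
Gzmc, chr14:56234608-56234907: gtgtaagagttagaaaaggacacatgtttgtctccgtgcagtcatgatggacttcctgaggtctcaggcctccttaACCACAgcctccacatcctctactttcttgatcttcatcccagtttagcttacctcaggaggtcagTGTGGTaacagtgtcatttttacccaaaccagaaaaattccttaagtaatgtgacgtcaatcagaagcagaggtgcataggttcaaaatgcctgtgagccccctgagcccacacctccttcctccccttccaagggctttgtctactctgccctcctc
Gzmd, chr14:56132544-56132843: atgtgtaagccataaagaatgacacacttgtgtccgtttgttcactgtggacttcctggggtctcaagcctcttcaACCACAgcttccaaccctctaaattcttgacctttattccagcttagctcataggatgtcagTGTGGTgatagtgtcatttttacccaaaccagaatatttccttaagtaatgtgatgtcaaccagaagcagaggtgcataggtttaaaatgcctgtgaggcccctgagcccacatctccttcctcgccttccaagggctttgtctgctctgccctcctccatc
Gzmf, chr14:56211358-56211657: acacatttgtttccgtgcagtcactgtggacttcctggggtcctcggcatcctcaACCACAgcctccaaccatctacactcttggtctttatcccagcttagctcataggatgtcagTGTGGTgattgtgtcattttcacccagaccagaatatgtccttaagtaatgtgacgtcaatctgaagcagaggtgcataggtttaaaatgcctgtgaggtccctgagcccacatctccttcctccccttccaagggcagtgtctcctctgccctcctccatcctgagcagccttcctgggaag
Gzmc, Gzmd and Gzmf each hold 2 matches to the Runx letters, 1 on each strand, and none to AP-1. Gzmb holds 2 Runx matches, both on its own strand, and 1 AP-1 match. Of 32851 promoters in the table, 16.8% hold a Runx match and 7.81% an AP-1 match. The promoters of Gzmd and Gzme were 93.4% identical, those of Gzmc and Gzmd 82.7%, and those of Gzmb and Gzmc 46.2%. A match to the letters is no evidence of binding.

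The cells with at least 10 UMIs of Gzmd to Gzmg numbered 8 of 47 in the control and 12 of 44 in the knockdown library. They were deep cells, with medians of 9798.5 and 9319.5 UMIs against 4418 and 3328 in the other NK cells. Xist was seen in all 8 and all 12 of them, Spp1 in 8 and 12, and Trac in 1 and 0. Of the receptors that chose the cells, Klre1 was seen in 8 and 11 of them, Ncr1 in 7 and 7, and Klrb1c in 6 and 7. Of every NK cell with any Gzmd to Gzmg UMI, 13 of 13 control and 17 of 17 knockdown cells also held Gzmc. Spp1, the gene of osteopontin, was at 2897 and 5372 CPM in the cells with at least 10 UMIs and at 410 and 1048 CPM in the other cells.

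Gzma and Gzmc were often in the same NK cells at 1 UMI, but few cells held much of both. Of the cells with a UMI of Gzma, 16 of 25 in control and 14 of 26 in knockdown also had one of Gzmc. With a limit of 10 UMIs, set after the values were seen, 11 control and 15 knockdown cells had Gzma alone, 20 and 18 had Gzmc alone, 4 and 4 had both, and 12 and 7 had neither. Ccl5 stood at 5438 and 10755 CPM (control and knockdown) in the cells with Gzma alone, and at 47.4 and 139 CPM in those with Gzmc alone. Gzmd, Gzme, Gzmf and Gzmg had 1 UMI in all in the Gzma-alone cells, in the control library. The Gzma-alone cells were shallower, with medians of 3283 and 2048 UMIs against 6498.5 and 8062 in the Gzmc-alone cells, and the part of depth in this split was not tested.

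**Figure D2:**
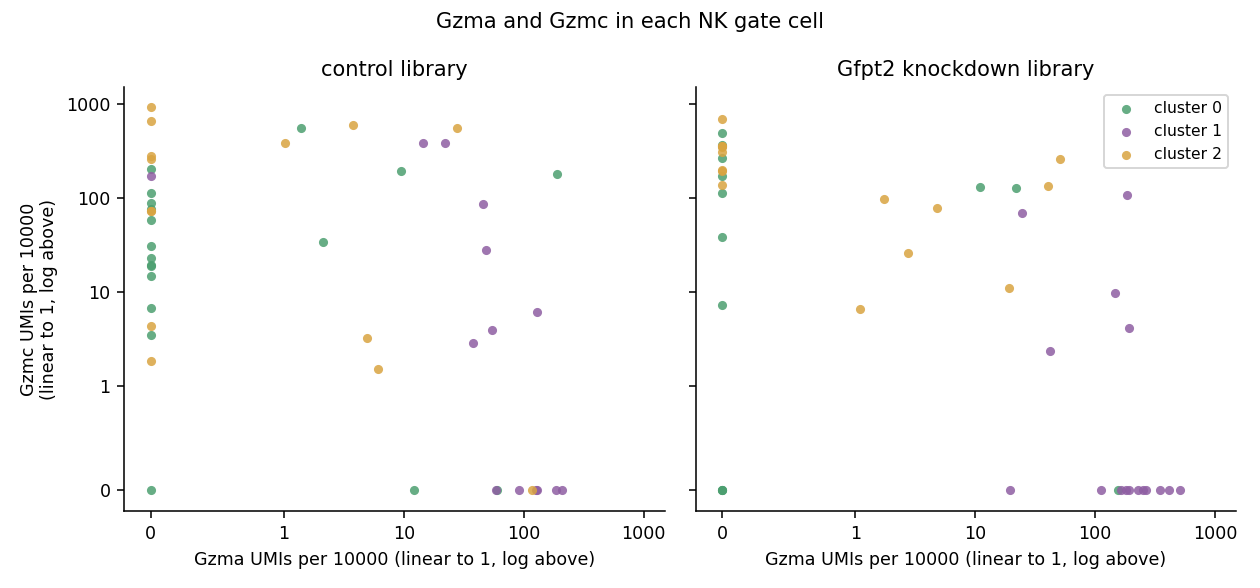
Gzma (x axis) against Gzmc (y axis) in UMIs per 10000 of the cell, on axes linear to 1 and logarithmic above, for each of the 47 control and 44 knockdown NK cells; colours are 3 unnamed clusters. Cells at 0 of either gene lie on the edges, 16 of 25 control and 14 of 26 knockdown cells with Gzma lie off the bottom edge, and 4 cells of each library had at least 10 UMIs of both.

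Clustering the 91 cells gave 3 groups at a resolution of 0.6, which are left unnamed and whose leading genes describe how they were formed. Cluster 0 held 19 control and 13 knockdown cells and was led by Cxcr6, St6galnac3, Tmem176b, Tmem176a, Ifih1 and Ltb, followed by the interferon-induced genes Ifi27l2a, Ifi206 and Isg15. Cluster 1 held 14 and 16 cells and was led by Ccl4, Ccl3, Ccl5, Itga2, Klf2 and Gzma. Cluster 2 held 14 and 15 cells, was led by Gzmg, Gzmd and cell cycle genes, and had a median of 9456 UMIs against 4341.5 and 3270.5. A resolution of 0.3 gave 2 groups and of 1 gave 5. The smallest of these 5 held 5 control cells and 1 knockdown cell, with medians of 10553 and 7279 UMIs, and its leading genes included Cav1, Cavin3, Dclk1, Dcn and Nupr1. Dcn, the gene of the fibroblast proteoglycan decorin, and Nupr1 had a UMI in all 6, as had Ptprc and Ncr1, and the fibroblast list had 75 and 23 UMIs there against 23 and 23 in all other NK cells. The count of genes past 2-fold without these 6 cells was 24 higher and 36 lower, a setting added after the values were seen.

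Chemokines went in both directions. Of 5 compared members, Ccl4 was more than 2-fold higher and Cxcl10 more than 2-fold lower in the knockdown library, and the median was 0.58 (-0.67 to 1.79 over the alternative settings). Ccl4 (MIP-1 beta), a chemokine that attracts monocytes and lymphocytes, had 118 control and 361 knockdown UMIs, in 16 and 27 cells, and was at 385 and 1421 CPM. Its ratio was 1.88 (1.58 to 2.20), but 1 knockdown cell held 54.3% of the UMIs, and without the leading cell of each library the ratio was 1.32. Macrophages held Ccl4 at 2065 and 3147 CPM and CD8 T cells at 623 and 946 CPM, so it was higher in the knockdown library in those gates too, and the part of free macrophage RNA in the NK count was not tested.

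Xcl1 (lymphotactin), which attracts cross-presenting dendritic cells, had 337 and 419 UMIs in 32 and 27 cells, a ratio of 0.58 (0.37 to 0.80), 0.18 with every cell weighted equally and -2.29 in cells with no Lyz2 or C1q UMI. Ccl5 (RANTES), a chemokine that attracts T cells, was at 1308 and 2011 CPM, in 26 cells of each library, a ratio of 0.62 (0.43 to 0.81), and -0.46 after thinning to 2500 UMIs. Ccl1 rested on 4 control and 2 knockdown cells, with 95.9% of its knockdown UMIs in 1 cell, and its ratio of 0.49 was -2.00 without the leading cells. Cxcl10, an interferon-induced ligand of CXCR3, was at 274 and 98.4 CPM, a ratio of -1.48 (-2.18 to -0.82), and -0.66 without cells that had 2 T cell receptor UMIs, while the macrophages stood at 403 and 566 CPM.

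Among cytokines, Ifng and Ltb lay on opposite sides. Ifng, the gene of interferon gamma, had 65 control and 102 knockdown UMIs in 23 and 21 cells, a ratio of 0.92 (0.46 to 1.39), and 0.58 to 3.94 over the alternative settings. Ltb, the gene of lymphotoxin beta, had 144 and 58 UMIs in 31 and 20 cells, a ratio of -1.04 (-1.51 to -0.59), and -1.46 to -0.89 over all alternative settings. Of the 4 list members compared, Ltb alone was past 2-fold. Fasl had 12 UMIs in each library, Tnf 23 and 25, and Tnfsf10, the gene of TRAIL, 20 and 18.

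**Figure D3:**
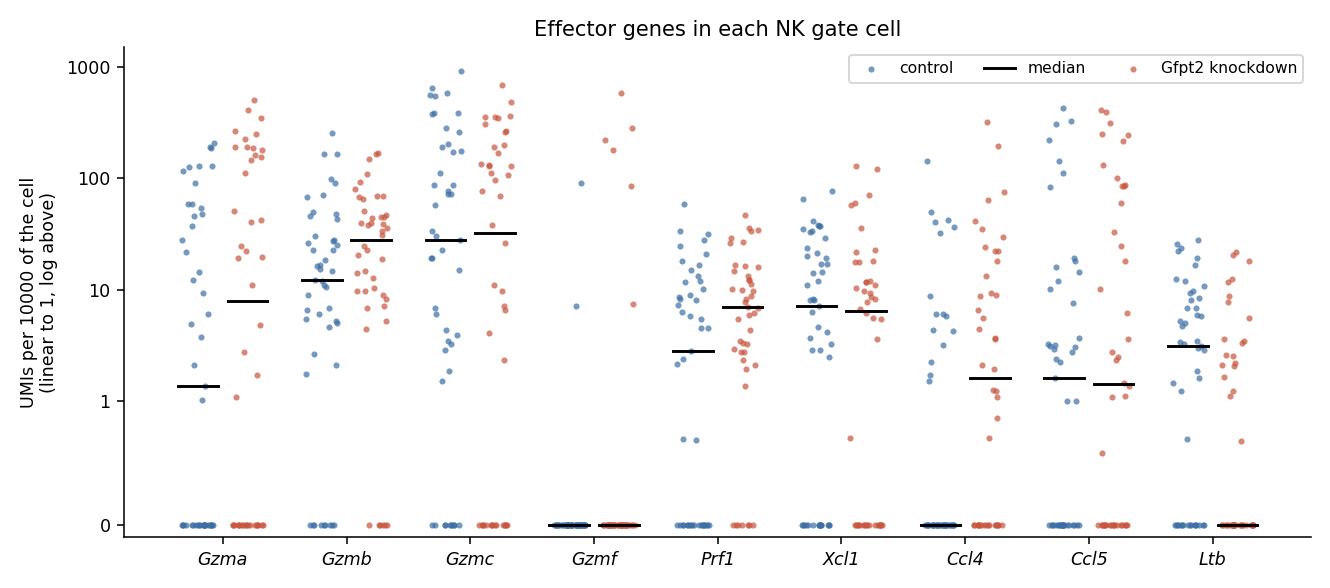
UMIs per 10000 of the cell for 9 effector genes (y axis, linear to 1 and logarithmic above); each point is 1 NK gate cell and black bars are medians. Gzmf lies at 0 in all but 2 control and 6 knockdown cells, Ccl4 spreads over 16 and 27 cells, and Ltb was seen in 31 control and 20 knockdown cells.

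Of the compared receptor genes, 1 of 10 activating and 1 of 9 inhibitory members passed 2-fold, where 1.07% of all genes were 2-fold higher and 2.76% lower. Of 10 compared activating receptors and adaptors, 0 were 2-fold higher and 1 was 2-fold lower, with a median of 0.19. Klrk1 (NKG2D) was at 313 and 354 CPM, in 36 and 37 cells, a ratio of 0.18 (-0.25 to 0.61). Cd226 (DNAM-1), an activating receptor for PVR and nectin-2, was the member past 2-fold, with 30 control UMIs in 16 cells and 12 knockdown UMIs in 5 cells, a ratio of -1.05 (-2.15 to -0.04). Its interval came close to 0. In tumour-like cells its ligand gene Pvr was at 15.8 and 17.9 CPM and Nectin2 at 9.79 and 9.26 CPM. The NKG2D ligand genes Ulbp1 and Raet1e were at 59.9 and 67.4 CPM and at 14.6 and 13.8 CPM in the same cells.

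The 9 compared inhibitory receptors had ratios above 0, where 794 of all 1776 genes had, with a median of 0.23 that ranged from -0.37 to 0.97 over the alternative settings, and 1 passed 2-fold. That was Klra7 (Ly49G), with 84 control UMIs in 19 cells and 163 knockdown UMIs in 24 cells, a ratio of 1.23 (0.84 to 1.62). It was 0.24 with every cell weighted equally and -0.97 without cells that had 2 T cell receptor UMIs. In CD8 T cells the ratio of Klra7 was 1.33 (0.66 to 2.04). Klra genes are close copies of each other, so their counts are uncertain. Klrd1 (CD94) was at 1109 and 1346 CPM, and its partner Klrc1 (NKG2A), which binds the product of H2-T23, at 209 and 212 CPM. In tumour-like cells H2-T23 was at 29.9 and 34.9 CPM.

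Few genes of NK identity and of its transcription factors passed 2-fold, as was so for all genes, of which 96.2% stayed within it. None of 14 compared identity genes did, with a median of 0.17, leaving out the 3 receptors that chose the cells. Il2rb, the shared receptor chain for IL-2 and IL-15, was at 424 and 508 CPM, in 44 and 39 cells, and Il15 in tumour-like cells was at 28.3 and 40.6 CPM. Eomes had 30 UMIs in each library, at 97.9 and 118 CPM, and Tbx21 had 52 and 47, a ratio of 0.12 (-0.48 to 0.72). Of 14 compared transcription factors only Ikzf2 (Helios) passed 2-fold, with 34 control UMIs in 17 cells and 11 knockdown UMIs in 7 cells, a ratio of -1.36 (-2.49 to -0.34). It was -0.57 after thinning to 2500 UMIs.

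Of the maturation genes, Klrg1 had 22 control UMIs in 6 cells and 32 knockdown UMIs in 12 cells, a ratio of 0.81 (-0.02 to 1.66). Itga1 (CD49a), a marker of tissue-resident cells, had 49 and 34 UMIs in 19 and 20 cells, a ratio of -0.26 (-0.93 to 0.40). The list of ILC1 and tissue residence genes had 6 of 8 ratios below 0, where 982 of all 1776 genes had, a median of -0.24 and 1 member, Ikzf2, past 2-fold. Of 4 mature NK genes 0 passed 2-fold, and of 6 immature NK genes 1 did, which was Ltb.

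None of the 16 compared genes of MHC class I presentation passed 2-fold. Of them 14 had ratios below 0, against 982 of all 1776 genes, with a median of -0.17 that ranged from -0.20 to 0.13 over the alternative settings. H2-D1 was at 2264 and 1751 CPM, a ratio of -0.37 (-0.55 to -0.20), and H2-K1 at 2205 and 1901 CPM, a ratio of -0.21 (-0.39 to -0.04). Both turned in stricter gates, to 0.29 and 0.23 in cells with no Lyz2 or C1q UMI and to 0.042 and 0.46 without cells that had 2 T cell receptor UMIs. B2m, the shared light chain, was at 1383 and 1452 CPM. In CD8 T cells the same list had a median of 0.08. Of 10 compared interferon response genes 1, Ly6a, was 2-fold lower, but 72.9% of its control UMIs lay in 1 cell, and without the leading cells its ratio was 0.05 instead of -1.33. Isg15 had a ratio of 0.44 (-0.10 to 0.97) and Irf1 of -0.49 (-1.20 to 0.21).

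The cell cycle list had a median of -0.13, with 1 of 13 compared members past 2-fold. That was Mki67, with 35 control UMIs in 8 cells and 12 knockdown UMIs in 10 cells, a ratio of -1.27 (-2.35 to -0.29), and -0.80 after thinning. Stmn1, a tubulin regulator of dividing cells, was at 695 and 677 CPM in 23 and 14 cells. The glycolysis and hypoxia list had 0 of 10 members past 2-fold and a median of 0.01, with Ldha at 1191 and 1196 CPM. Of the hexosamine pathway in which Gfpt2 acts, only Ogt reached 30 UMIs in NK cells, with 28 and 30, a ratio of 0.37 (-0.42 to 1.17). Gfpt1, which catalyses the same step as Gfpt2, had 10 and 12 UMIs. Early response genes had 11 of 15 ratios below 0, against 982 of all 1776 genes, and none past 2-fold, with a median of -0.25 that ranged from -0.48 to 0.03. No chemokine receptor or trafficking gene of 7 compared and no cytokine receptor of 4 passed 2-fold.

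Outside the lists, Spp1 had 348 control and 808 knockdown UMIs in 21 and 28 cells, a ratio of 1.49 (1.30 to 1.67), which was 0.32 with the deepest 5% of cells left out and -0.43 without cells that had 2 T cell receptor UMIs. In CD8 T cells the ratio of Spp1 was 1.48 (1.21 to 1.76), and macrophages stood at 1087 and 589 CPM. Ifitm2, an antiviral membrane protein gene, had a ratio of 1.51, with 37.1% of its knockdown UMIs in 1 cell, and Epc1 one of 1.39, with 44.0%, and -1.40 without cells that had 2 T cell receptor UMIs. Mydgf had 28 UMIs in 20 control cells and 51 in 24 knockdown cells, a ratio of 1.14 (0.44 to 1.86), and 0.87 after thinning.

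At the lower end, Lmna, the gene of nuclear lamins A and C, had 81 control UMIs in 28 cells and 20 knockdown UMIs in 12 cells. Its ratio of -1.75 (-2.53 to -1.03) lay between -4.14 and -1.35 over the alternative settings, and was -1.57 without the 6 cells led by Cav1 and Dcn, which held 33 of the 81 control UMIs and 4 of the 20 knockdown UMIs. Tumour-like cells had Lmna at 562 and 554 CPM. Dscam, a cell adhesion gene, had 53 UMIs in 21 cells and 15 in 8 cells, a ratio of -1.55 (-2.48 to -0.70), and was under 2 CPM in macrophages and tumour-like cells. In CD8 T cells Dscam was at 153 and 85.7 CPM and was also lower in the knockdown library, with a ratio of -0.84 (-1.19 to -0.50). Rbms1, an RNA-binding protein gene, had 58 UMIs in 35 cells and 21 in 14 cells, a ratio of -1.19 (-1.99 to -0.45), and -0.42 without cells that had 2 T cell receptor UMIs. Tsc22d3 (GILZ), a glucocorticoid-induced gene, had 68 and 24 UMIs, a ratio of -1.23 (-1.97 to -0.54), and -0.45 without the same cells. Nupr1 at -1.68, Gng11 at -1.46, the histone gene H2ac8 at -1.67 and Atox1 at -1.21 completed the 10 lowest among genes with at least 50 UMIs in 1 library, with Cxcl10 and Ly6a. H2ac8 was at -0.088 after thinning. Without the 6 cells the ratio of Nupr1 was -0.35, that of Atox1 -0.40 and that of Gng11 -1.22. Without cells that had 2 T cell receptor UMIs the direction of both Nupr1 and Gng11 turned, to 0.36 and 1.11. The 6 cells held 49 of 58 control UMIs of Nupr1 and 73 of 106 of Gng11. Nupr1 and Gng11 were above 1000 CPM in tumour-like cells, and the part of free tumour RNA in their NK counts was not tested. Atox1 had 40.6% of its control UMIs in 1 cell.

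**Figure D4:**
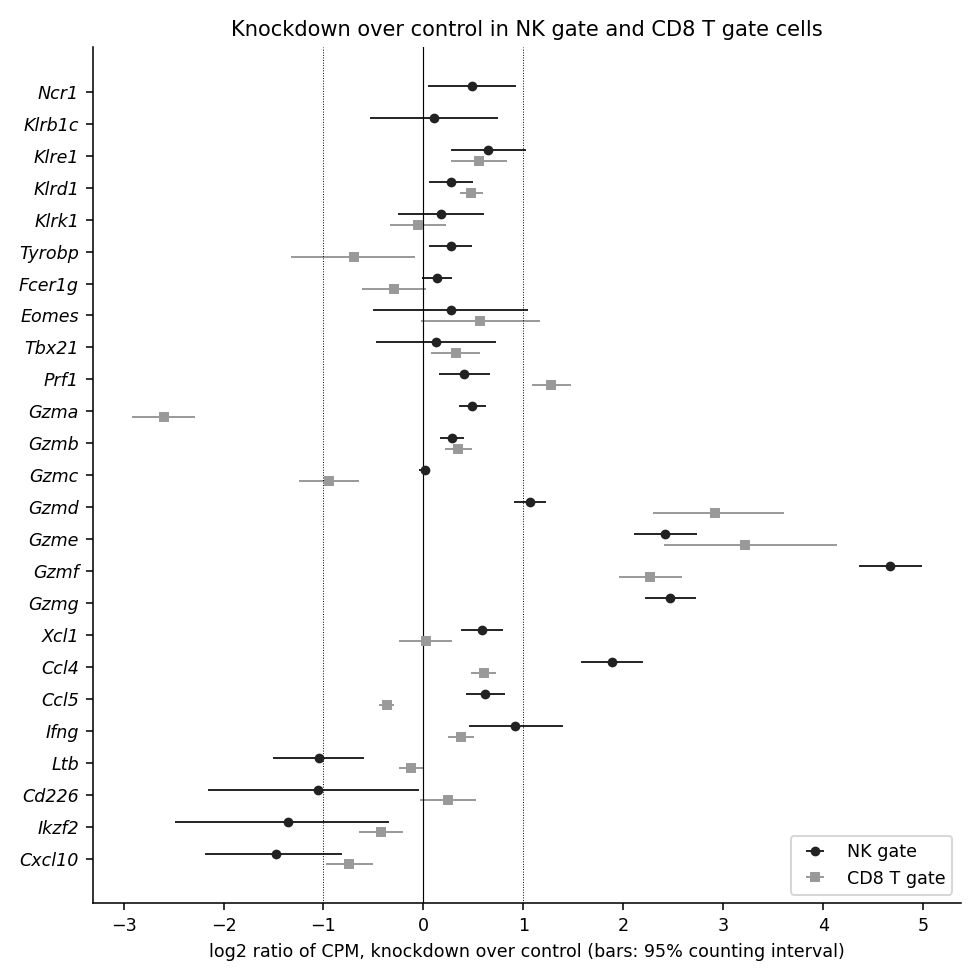
Log2 ratio of CPM, knockdown over control (x axis), of 25 genes in NK gate cells (black circles) and CD8 T gate cells (grey squares), with exact 95% counting intervals; dotted lines mark 2-fold, and CD8 T values are drawn where 1 library had at least 30 UMIs and neither was at 0. Gzma lies at 0.49 in NK cells and at -2.59 in CD8 T cells, while Gzmf is above 0 in both gates.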

How the data were processed

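Single cells of 2 tumours were counted on the 10x Genomics platform, with 1 library per group. The authors deposited raw UMI counts (whole numbers, not normalised). Their matrices came from Cell Ranger 6.1.0, per the file headers, while version 3.1.0 is named per the submitters' processing notes. The genome build, the annotation, the use of strand and filters on cells are not given in the sources used here. The gate and the gene lists were chosen with earlier results of these data known. UMIs were summed over the gate and divided by all UMIs of those cells (CPM). Genes with at least 30 UMIs in 1 library were compared, and past 2-fold counted as called, since no test is possible. Named were the 10 highest and 10 lowest ratios with at least 50 UMIs, 15 and 10 against CD8 T cells, and of each list the 4 members with the most UMIs and those past 2-fold. Other genes were named after their values were seen. Doublets were kept in the main values; Scrublet scores by rank took 2 control and 1 knockdown NK cells in an alternative. Clustering used scanpy 1.11.5 and leidenalg 0.10.2 under Python 3.11.15, with scipy 1.17.1 for intervals. The counting was tested on simulated data.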

Additional observations from a re-analysis of the deposited data

Results flagged for a closer look

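Some genes had ratios of knockdown over control on opposite sides of 0 in NK and CD8 T cells, with neither 95% counting interval reaching 0. With 1 library per group the difference was not tested. Gzma was at 0.49 in NK cells and -2.59 in CD8 T cells, where it had 716 control and 96 knockdown UMIs. Icam1, an adhesion molecule gene, was at -1.62 in NK cells and 0.81 in CD8 T cells. Bcl2a1b, a survival gene with close copies, was at -1.35 and 0.60. Galnt1, which starts O-linked glycosylation, was at -1.07 and 0.53, and Ube2e3, a ubiquitin-conjugating enzyme gene, at -1.03 and 0.47. These 5 genes were picked out of all genes compared with no adjustment for their number.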

How the results depend on the processing

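Of 1562 values recomputed over 135 results and 15 settings, 1251 stayed within their interval or within 1.5 times, 294 moved and 17 of values past 2-fold changed sign. Between the tumours, 159 values of 66 genes and list medians changed sign, 146 of them from within 2-fold. No paired analysis was possible because each group had 1 library. The settings that left out the cell with the most UMIs of a gene, and the 6 cells led by Cav1 and Dcn, were chosen after seeing the data. Of the counts past 2-fold between the tumours, the 19 higher and 49 lower genes became 217 and 442 with 10 UMIs in place of 30, and 983 and 1239 with no minimum, where more genes with few UMIs are compared. They became 7 and 11 after thinning, and 7 and 20 without cells with 2 T cell receptor UMIs. The higher genes became 37 with every cell weighted equally, and the lower 15 in cells with no Lyz2 or C1q UMI. Against CD8 T cells the 64 higher and 334 lower genes became 135 and 524 with 10 UMIs, 13 and 82 with no Lyz2 or C1q UMI, 102 and 141 without T cell receptor UMIs, and 22 and 145 after thinning. Signs changed without cells with 2 T cell receptor UMIs for Epc1 (-1.40), Gng11 (1.11), Gzmd (-7.16), Gzme (-5.23), Gzmg (-4.81, at a floor of 3 counts), Klra7 (-0.97), Ly6a (2.64), Nupr1 (0.36) and Spp1 (-0.43). In the same cells the signs against CD8 T cells changed for Gzmd (-2.44), Gzme (-1.95) and Spp1 (-0.41). With the deepest 5% left out, Gzmd was at -0.083 and Ccl1 against CD8 T cells at -1.69. Ly6a was at 0.23 without doublets, 0.34 without the 6 cells and 0.047 without its leading cells. These gates keep as few as 10 cells, and beyond that the cause was not tested. With 91 cells, 2-fold differences in genes under about 30 UMIs cannot be read.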
